A study of Homo sapiens with 6 samples.

Results

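Sensors of double-stranded RNA and the oligoadenylate synthetases were followed in RNA-seq of HEK293T cells that expressed a control hairpin or a hairpin against *RREB1*. The 9 genes were chosen by symbol from a merged table of counts, with earlier results of this same comparison known. They are *TLR3*, *DDX58*, *IFIH1*, *DHX58*, *MAVS*, *EIF2AK2*, *OAS1*, *OAS2* and *OAS3*, and all 9 had a row among the 56811 gene symbols of the counts. Of the 9 genes, 7 had at least 10 reads over the libraries and were among the 23617 genes tested, while *OAS1* and *OAS2* fell below this minimum. Because the list was made with the comparison in view, the differences of its members are given as a description, without p-values.

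HEK293T is a human embryonic kidney line that carries the SV40 large T antigen. There were 3 libraries of cells with a control short-hairpin RNA (sh-control) and 3 of cells with a short-hairpin RNA against *RREB1* (sh-*RREB1*). Per the study's methods, hairpin lines were made by lentiviral transduction and drug selection, for the control hairpin as for that against *RREB1*. The labels name no further treatment, and total RNA was read with strand kept. Whether the replicates were separate cultures, or the lines single clones, is not given in the sources used here, so p-values measure only the spread between these libraries, which may be technical.

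Double-stranded RNA is a common product of viral replication and is read by several proteins in parallel. TLR3 samples it in endosomes and signals through the adaptor TICAM1, whereas the helicases RIG-I (*DDX58*) and MDA5 (*IFIH1*) read it in the cytosol and signal through MAVS on mitochondria, and both routes lead to interferon. The kinase PKR (*EIF2AK2*) halts translation by phosphorylating eIF2alpha, and the OAS enzymes make oligoadenylates that trigger the decay of RNA. Interferon induces many of these genes in turn.

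The sh-control libraries held 23362197 to 33044061 reads on genes, and the sh-*RREB1* libraries 12257054 to 26145878. Sh-*RREB1* replicate 3 stood apart, with 52.1% of its aligned reads at more than one position against 3.66% to 7.63% in the other libraries. *RREB1* itself ranged from 25.1 to 27.1 CPM (reads on a gene per 1000000 reads on all genes, scaled by TMM) in sh-control, and from 23.1 to 24.6 CPM in the other group. The log2 fold change was -0.14 (SE 0.13, edgeR quasi-likelihood adjusted p = 0.489), so the group is named here by its label only. By other measurements, the study reports *RREB1* mRNA (relative to *ACTB*) and protein as reduced in HEK293 cells with its hairpin. Libraries also differed by base composition, as the tenth of genes with the highest GC content lay 1.33 below the mean of the 6 libraries in sh-control replicate 1 and 0.50 to 0.86 above it in sh-*RREB1* on the log2 scale. For this reason values are also given after each library's dependence on GC content and gene length had been removed (below, with the trend removed). With the trend removed, the log2 fold change of *RREB1* was -0.36 (interval -0.63 to -0.096, edgeR quasi-likelihood adjusted p = 0.054). It ran from -0.44 to -0.27 when each library was left out in turn under the same correction. Of 7 HEK293 marker genes, 6 were above 1 CPM in every library and *PAX2* was lower. Their summed level was 447 to 512 CPM in sh-control and 733 to 852 CPM in the libraries labelled sh-*RREB1*. Most of the sum was *VIM*, at a mean of 339 CPM in sh-control and 570 CPM in sh-*RREB1*. *NEFM*, *NEFL* and *PAX2* were also higher in each sh-*RREB1* library, and *INA*, *KRT8* and *KRT18* overlapped between groups. *PAX2* had only 3 reads in each sh-control library, against 10, 8 and 6. With the trend removed, the log2 fold change was 0.68 for *VIM* and 0.92 for *NEFL*. For *NEFM* (0.42, -0.08 to 0.93) and *PAX2* (0.76, -0.55 to 2.07) the interval then held 0. Of 8 blood and immune cell markers, *CD3E* and *MS4A1* had no read, and the sum was 0.997 to 1.49 CPM in sh-control and 0.949 to 1.53 CPM in sh-*RREB1*. The part of these marker differences in the results was not tested.

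*TLR3*, *DDX58* and *IFIH1* were lower in each library labelled sh-*RREB1* than in any sh-control library, by 4.80-fold, 2.48-fold and 3.26-fold. These 3 of the 7 members with enough reads met the call used for all genes, an adjusted p below 0.01 with an absolute log2 fold change above 1. Among all 23617 genes 163, or 0.69%, met it in the lower direction and 635, or 2.69%, in the higher direction, in which no member met it. *DHX58*, *MAVS*, *EIF2AK2* and *OAS3* did not meet it. With the GC and length trend removed, the same 3 members met the call and 282 genes, or 1.19%, did so in the lower direction. The higher share of all calls moved from 79.6% to 60.5% under that correction. Since the members were listed with this comparison known, nothing is read from these shares.

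**Figure D1:**
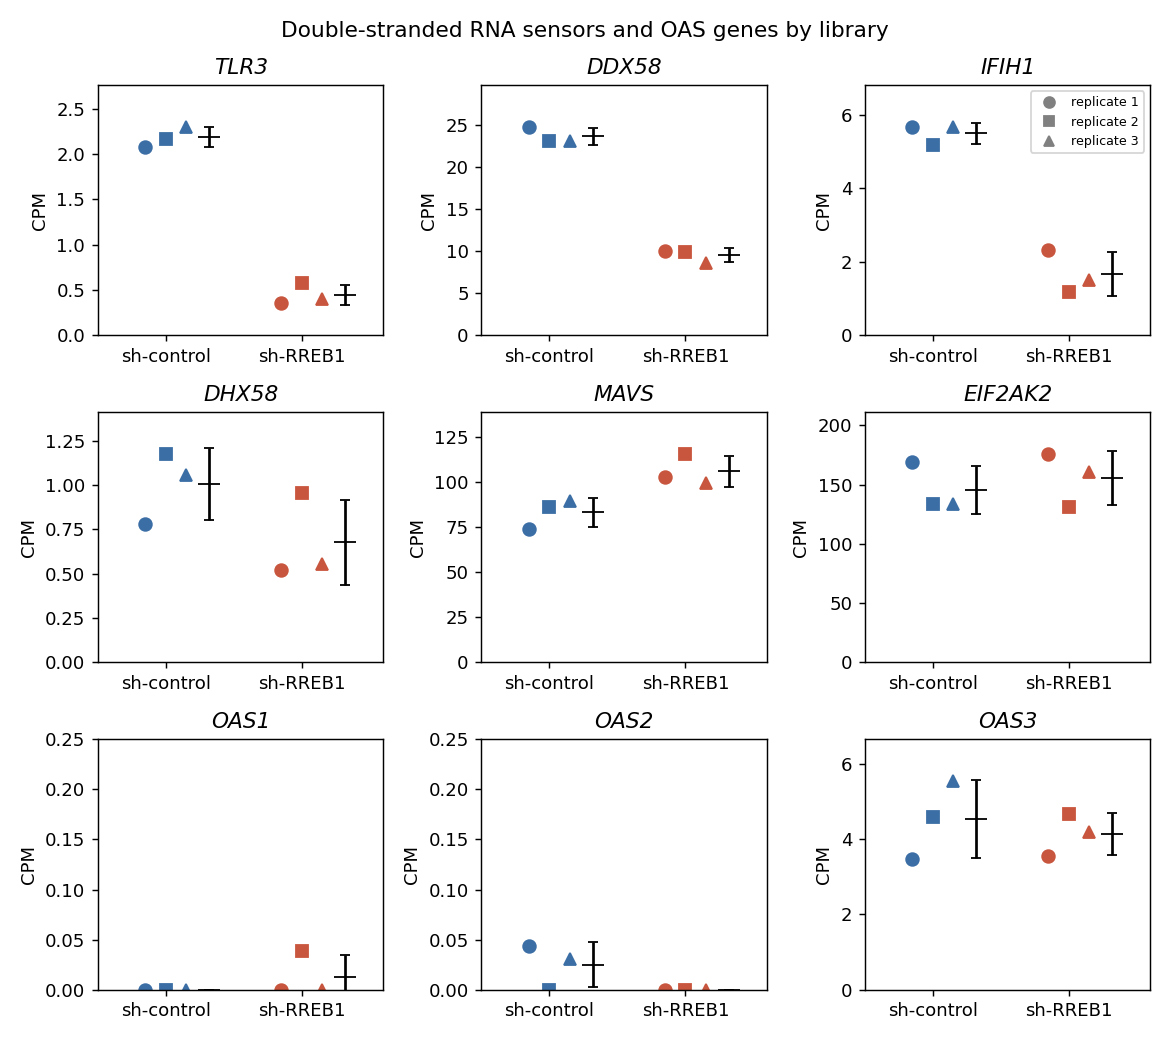
CPM of each of the 9 genes in the 3 sh-control (blue) and 3 sh-*RREB1* (red) libraries, with a marker shape for each replicate and the mean ± SD in black. Each panel has its own scale from 0. The groups are apart for *TLR3*, *DDX58*, *IFIH1* and, the other way round, *MAVS*.

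*TLR3* (ENSG00000164342), the endosomal receptor, lies on chromosome 4 of GRCh38 from 186068911 to 186088073 on the plus strand. Replicates 1, 2 and 3 of sh-control gave 48, 59 and 74 reads, against 9, 15 and 5 with the label sh-*RREB1*. These reads are 2.08, 2.17 and 2.30 CPM (mean 2.18 ± 0.111, SD, n = 3), against 0.362, 0.573 and 0.395 CPM (mean 0.443 ± 0.113, n = 3). Every sh-control library was far above every sh-*RREB1* library, and the spread within each group was small beside the gap. The log2 fold change was -2.26 (SE 0.27, 95% interval -2.88 to -1.65), and -2.02 (-2.66 to -1.37) with the GC and length trend removed. The counts behind the lower group are few, and the exact Poisson 95% interval on the 5 reads of replicate 3 ran from 1.62 to 11.7 reads, or 0.128 to 0.923 CPM. This upper limit, like those of the other sh-*RREB1* libraries at 0.686 and 0.945 CPM, lay below the lowest lower limit in sh-control, 1.53 CPM, where intervals cover counting error only. In bulk RNA, fewer cells with a transcript and less of it per cell cannot be told apart.

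*DDX58* (ENSG00000107201), which encodes RIG-I, the sensor of short double-stranded ends, lies on chromosome 9 from 32455302 to 32526208 on the minus strand. Sh-control gave 572, 628 and 741 reads, against 251, 260 and 108 with sh-*RREB1*. Levels were 24.8, 23.1 and 23.0 CPM (23.6 ± 1.01) with sh-control, against 10.1, 9.93 and 8.54 CPM with sh-*RREB1* (9.52 ± 0.848). The libraries of each group were close to each other and the groups did not overlap. The difference was -1.31 on the log2 scale (SE 0.15, -1.65 to -0.97) and -1.09 (-1.33 to -0.84) with the trend removed. This is the most deeply counted of the 3 lower genes, and the one with the smallest difference.

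*IFIH1* (ENSG00000115267) encodes MDA5, the sensor of long double-stranded RNA, and lies on chromosome 2 from 162267074 to 162318684 on the minus strand. Its reads numbered 131, 141 and 182 with sh-control, against 58, 31 and 19 with sh-*RREB1*. Levels were 5.68, 5.18 and 5.66 CPM (5.51 ± 0.285) with sh-control, against 2.33, 1.18 and 1.50 CPM with sh-*RREB1* (1.67 ± 0.592). Replicate 1 was the highest of the sh-*RREB1* libraries and still lay well under the sh-control range. On the log2 scale the difference was -1.71 (SE 0.26, -2.29 to -1.12) and -1.46 (-1.88 to -1.03) with the trend removed.

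*DHX58* (ENSG00000108771) encodes LGP2, the relative of RIG-I and MDA5 that binds RNA but lacks the signalling domains and modulates the other receptors. It lies on chromosome 17 from 42101404 to 42112714 on the minus strand and was weakly counted, at 18, 32 and 34 reads with sh-control against 13, 25 and 7 with sh-*RREB1*. Levels were 0.781, 1.18 and 1.06 CPM (SD 0.203) with sh-control, against 0.522, 0.954 and 0.554 CPM with sh-*RREB1* (0.677 ± 0.241). Sh-*RREB1* replicate 2 lay above sh-control replicate 1, so the groups overlapped. Its log2 fold change was -0.54 (SE 0.33, -1.30 to 0.22), an interval that held 0. With the trend removed it was -1.05 (-1.68 to -0.43) and still did not meet the call. The exons of *DHX58* were the most GC-rich of the members at 56.5%, compared to 39.5%, 41.0% and 39.9% in *TLR3*, *DDX58* and *IFIH1*.

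*MAVS* (ENSG00000088888), the mitochondrial adaptor that RIG-I and MDA5 share, lies on chromosome 20 from 3846799 to 3876123 on the plus strand. Its level was 74.2, 86.1 and 89.6 CPM (83.3 ± 8.11) with sh-control, against 103, 116 and 99.5 CPM with sh-*RREB1* (106 ± 8.53), from 1258 to 3030 reads per library. Every sh-*RREB1* library was above every sh-control library, which makes *MAVS* the only member apart in that direction. The log2 fold change was 0.35 (SE 0.12, 0.08 to 0.62), and 0.12 (-0.05 to 0.30) with the trend removed. The adaptor was thus 1.27-fold higher in the group in which the counts of both cytosolic receptors were lower, and after the correction its interval held 0.

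*EIF2AK2* (ENSG00000055332) encodes PKR and lies on chromosome 2 from 37099210 to 37157522 on the minus strand. Its level was 169, 134 and 134 CPM (145 ± 20.4) with sh-control, against 176, 131 and 161 CPM with sh-*RREB1* (156 ± 22.8), from 2033 to 4383 reads per library. The sh-control range lay inside that of sh-*RREB1*, and replicate 1 was the highest of each. Its log2 fold change was 0.10 (SE 0.15, -0.23 to 0.43), and 0.33 (0.15 to 0.50) with the trend removed. Both intervals lay wholly above those of *TLR3*, *DDX58* and *IFIH1*.

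The 3 OAS genes lie side by side on chromosome 12, all on the plus strand. *OAS1* (ENSG00000089127) runs from 112905856 to 112933219, *OAS3* (ENSG00000111331) from 112938051 to 112976460 and *OAS2* (ENSG00000111335) from 112978395 to 113011723. Only *OAS3*, the synthetase that favours long double-stranded RNA, was clearly detected. Sh-control gave 80, 125 and 178 of its reads, against 88, 122 and 53 with sh-*RREB1*. These gave 3.47, 4.59 and 5.54 CPM (4.53 ± 1.03) with sh-control, against 3.54, 4.66 and 4.19 CPM with sh-*RREB1* (4.13 ± 0.564). All sh-*RREB1* libraries fell inside the sh-control range, and the log2 fold change was -0.14 (SE 0.22, -0.65 to 0.37). *OAS1* had 1 read in sh-*RREB1* replicate 2 and none in the other libraries. *OAS2* had 1 read each in sh-control replicates 1 and 3 and none elsewhere. A library with no read of a gene allows a level of up to 3 reads (the one-sided 95% limit of a count of 0), or 0.0933 to 0.237 CPM over the 6 libraries, so *OAS1* and *OAS2* give no comparison at this depth.

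**Figure D2:**
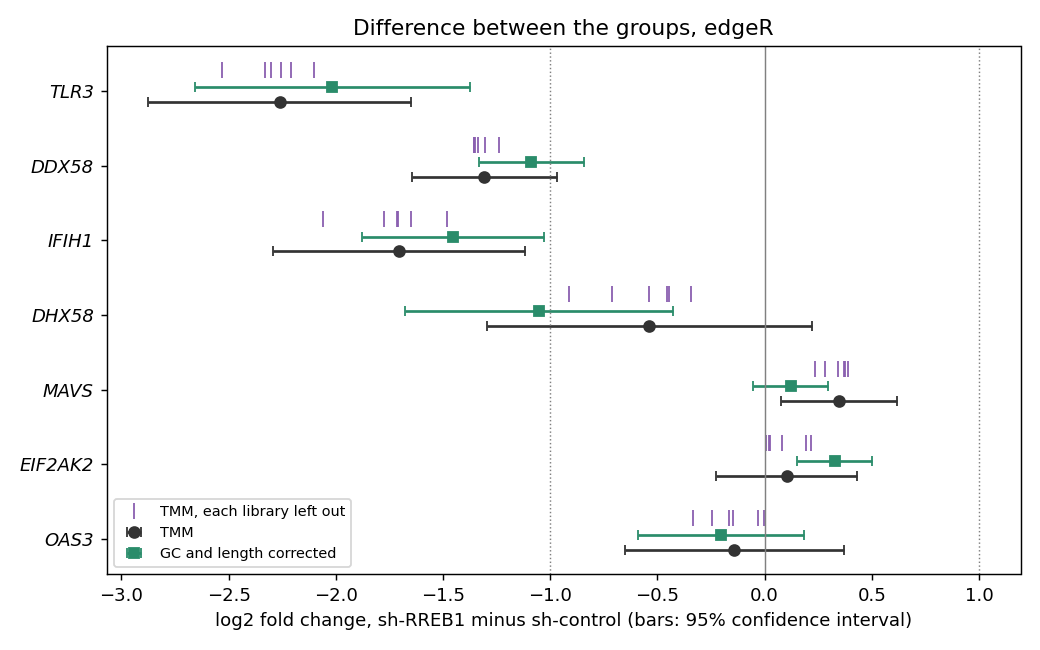
Log2 fold change (sh-*RREB1* minus sh-control) of the 7 members with at least 10 reads, from edgeR with TMM scaling (black) and with the GC and length trend removed (green), with 95% intervals, and with each library left out in turn (purple ticks). Dotted lines mark the fold threshold of the call. Only *TLR3*, *DDX58* and *IFIH1* keep every value below -1.

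In total, 3 members had all sh-control libraries above all sh-*RREB1* libraries, a separation that 4708 genes, or 19.9% of those tested, also had. *MAVS* had the opposite separation, as did 4955 genes or 21% of those tested. The differences of *TLR3*, *DDX58* and *IFIH1* did not rest on 1 library. With each library left out in turn they ran from -2.53 to -2.10, -1.35 to -1.24 and -2.06 to -1.48. Their calls were less stable. All 3 were called without sh-control replicate 1, *TLR3* and *DDX58* without sh-control replicate 3 or sh-*RREB1* replicate 2, and none without sh-control replicate 2, sh-*RREB1* replicate 1 or sh-*RREB1* replicate 3. In those last fits 9, 25 and 8 of all genes were called. Without sh-*RREB1* replicate 3, the library that stood apart, the log2 fold changes were -2.21 for *TLR3*, -1.24 for *DDX58* and -1.65 for *IFIH1*. With the GC and length trend removed, all 3 were called whichever library was left out.

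The 3 lower genes share a gap between the groups, and such a gap by itself gives a high correlation over all 6 libraries. Pearson's r of log2 CPM was 0.98 between *TLR3* and *DDX58*, 0.95 between *DDX58* and *IFIH1*, and 0.89 between *TLR3* and *IFIH1*, as a description over 6 libraries that fall into 2 groups. Within the groups the order of the libraries differed between these genes. The Poisson intervals of *TLR3* overlapped within each group, as at 0.165 to 0.686 and 0.128 to 0.923 CPM in sh-*RREB1* replicates 1 and 3. Whether the genes rise and fall together within a group is therefore not resolved. In sh-*RREB1* replicate 1, *TLR3* was at its lowest of the group (0.362 CPM) and *IFIH1* at its highest (2.33 CPM). In sh-control replicate 1, *TLR3* was likewise lowest (2.08 CPM) and *DDX58* highest (24.8 CPM). *EIF2AK2* and *OAS3* went in opposite directions from library to library (r = -0.89), and *EIF2AK2* and *DHX58* did likewise (r = -0.88). Of 14594 genes compared over the 6 libraries, 938 had an r above 0.95 with *TLR3*. Near ones were *AURKA*, a mitotic kinase (r = 0.998), and carboxypeptidase M, whose symbol is *CPM* (r = 0.998). For *EIF2AK2*, 129 genes had an r above 0.95, led by *DPY19L3* (r = 0.997), ENSG00000279659 (r = 0.996) and *GAR1* (r = 0.994). Libraries differ in depth and in base composition, and the latter shifts genes according to their GC content. The part of either in these correlations was not tested.

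Per kilobase of exon, the members spanned a wide range of levels. In sh-control the order was *EIF2AK2* (13.2 CPM per kilobase), *MAVS* (7.08), *DDX58* (2.28), *IFIH1* (1.05), *TLR3* (0.291), *DHX58* (0.263), *OAS3* (0.251), *OAS2* (0.0022) and *OAS1* (0). *TLR3* and *DHX58*, *DHX58* and *OAS3*, and *OAS2* and *OAS1* overlapped between libraries, and the other neighbours did not. Set among 14585 protein-coding genes tested, *EIF2AK2* lay above 76.7% and *MAVS* above 63.8%, *DDX58* above 43.2%, and *IFIH1* above 33.0%. *TLR3*, *DHX58* and *OAS3* lay lowest among those tested, above 20.1%, 19.1% and 18.7%. By the length of all exons, the kinase and the adaptor thus lay in the upper part of the coding genes and the RNA receptors in the lower part. *DDX58* was nearest the middle, and by its longest transcript its sh-control level was 4.76 CPM per kilobase. Shares of coding genes were not computed by that length. In sh-*RREB1*, *TLR3* dropped below *OAS3* and *DHX58* to 0.0591 CPM per kilobase, and *DHX58* was 2.99-fold above it with no overlap. There, *IFIH1* (0.320), *OAS3* (0.229) and *DHX58* (0.177) were neighbours that overlapped.

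**Figure D3:**
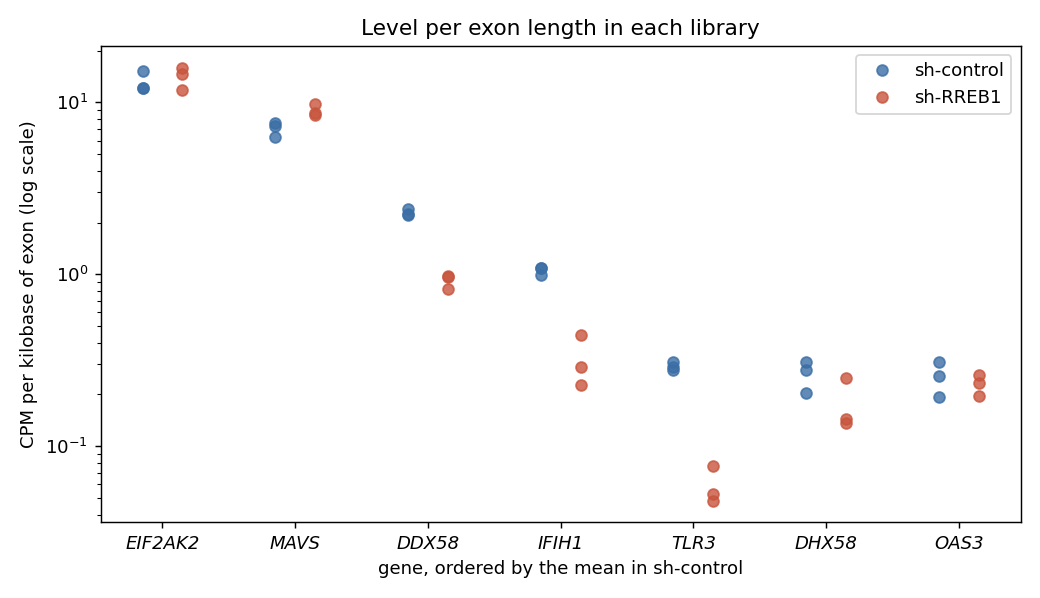
Level of the 7 members with at least 10 reads in CPM per kilobase of exon, on a log axis, in each sh-control (blue) and sh-*RREB1* (red) library, ordered by the sh-control mean. *EIF2AK2* and *MAVS* lie highest in both groups, and *TLR3* moves from 0.291 to 0.0591, below *DHX58* and *OAS3*.

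The strand-specific counts also hold the reads on the strand opposite to each gene. For the median protein-coding gene they were 0.105% to 0.222% of the reads on both strands. *DDX58* had 6.84%, 2.18% and 2.37% in sh-control and 10.0%, 8.13% and 14.3% in sh-*RREB1*. The share was higher in all 3 libraries of the second group, but its denominator includes the sense reads, for which *DDX58* was already lower there. A higher share therefore follows without any change on the opposite strand and is no separate result. The opposite-strand reads themselves (42, 14 and 18, and then 28, 23 and 18, not scaled for depth) overlapped. An exact permutation test on 3 libraries against 3 cannot go below a two-sided p of 0.10, and none was run. *MAVS* had 0.888% to 2.17% and *EIF2AK2* 0.808% to 1.41% over the 6 libraries, where *EIF2AK2* overlaps the opposite-strand gene *GPATCH11*. *OAS3* had no opposite-strand read in any library, and the antisense RNA ENSG00000257452 that overlaps the OAS genes had no read either. *DHX58* had 0 to 6 such reads in a library, *TLR3* had 1 in all and *IFIH1* at most 2 in a library.

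Several of these genes are known to be induced by interferon, through the interferon-stimulated response element, so the letters of their promoters are shown around the matches to its core. The windows run from 250 bases before to 50 bases after the start site in RefSeq (GRCh38.p14), and 7 of the 9 members had one, without *DHX58* and *OAS2*. The pattern GAAANNGAA, on either strand, was in 4 of these 7, *TLR3*, *IFIH1*, *EIF2AK2* and *OAS3*, and in 8.11% of 35116 promoters. A closer spacing, GAAANGAAA, was searched after the promoters had been read, and was in *DDX58*, *OAS1* and *OAS3* and in 3.12% of promoters. It overlaps the first pattern in *OAS3*. Neither pattern was in the window of *MAVS*. Capitals mark the matches in the stretches below, which are written along the strand of the gene, so that a match on the opposite strand reads TTC and TTTC. They lie at chr4:186069136-186069165 (plus strand), chr9:32526346-32526446 (minus), chr2:162318685-162318859 (minus), chr2:37156971-37157000 (minus), chr12:112906934-112906963 (plus), and chr12:112938318-112938347 and chr12:112938451-112938480 (plus).
TLR3: ttttttcaagctttactTTCACTTTCgaga
DDX58: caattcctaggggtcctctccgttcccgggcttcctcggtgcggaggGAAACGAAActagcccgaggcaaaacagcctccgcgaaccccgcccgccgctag
IFIH1: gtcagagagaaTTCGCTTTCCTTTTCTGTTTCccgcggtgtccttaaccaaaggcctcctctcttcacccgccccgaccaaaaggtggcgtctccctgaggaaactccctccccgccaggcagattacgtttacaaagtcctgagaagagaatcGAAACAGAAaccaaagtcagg
EIF2AK2: gcggagtccaagggGAAAACGAAactgaga
OAS1: tcccttctgagGAAACGAAAccaacagcag
OAS3, upstream: gctagaaaGAAACGAAACTGAAagcaggga
OAS3, at the start: gagccgggcggGAAAACGAAaccagaaatc

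*IFIH1* had the most matches, 3 overlapping ones from base -164 to -144 on the opposite strand and 1 from -21 to -13. The matches of *TLR3* and *EIF2AK2* span the start site itself, from -3 to 6 and from -6 to 3. GAAANNGAA was in *TLR3* and *IFIH1*, which met the call, and in *EIF2AK2* and *OAS3*, which did not. Control of any of these genes through such matches was not tested. The letters CAAACCACC, the core of the motif given for RREB1, were in none of the 7 windows and in 0.265% of all promoters, which says nothing about binding elsewhere or to other letters.

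**Figure D4:**
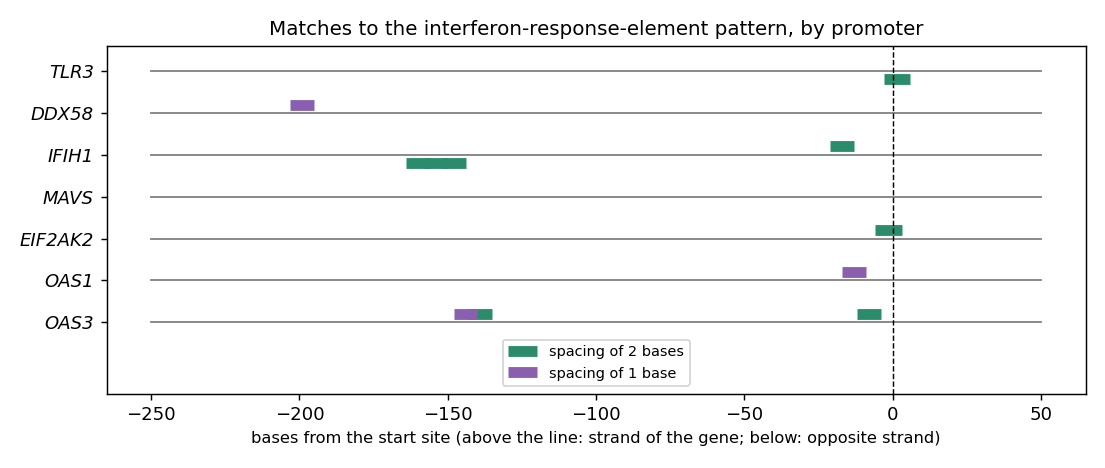
Position of the 2 searched patterns in the promoter windows of 7 members, in bases from the RefSeq start site (dashed line), with matches on the strand of the gene above each line and on the opposite strand below it. Green is the pattern with a spacing of 2 bases and purple that with 1. *MAVS* has none and *IFIH1* has 4.

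The rest of the pathway was read from 4 lists written from known function, with earlier results of these data known. They hold 75 genes, of which 68 had enough reads. Of these 68, none was called higher and 1 was called lower, beside 2.69% and 0.69% of all genes tested. At such shares lists of this size would hold few calls, so nothing is read from these counts or from those of each list below. An unadjusted edgeR p below 0.05 was found in 32 of the 68, beside 34.2% of all genes tested. Nothing is read from this either, because all genes tested include many with few reads, in which a small p is harder to reach. DESeq2 called 2 of the 68 higher and 1 lower, beside 5.88% and 1.13% of all genes. The median log2 fold change was -0.05, beside 0.01 over all genes tested, and -0.08 beside -0.03 with the trend removed. Adjusted p-values are from the edgeR quasi-likelihood fit, by the Benjamini-Hochberg method over all 23617 genes.

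Among 20 other genes that bind double-stranded RNA or act with the OAS enzymes, 19 were tested and 1 was called. *DDX60*, a helicase-like protein that has been described as a helper of RIG-I, had 15.6, 16.0 and 14.4 CPM with sh-control, against 8.92, 5.88 and 7.99 CPM with sh-*RREB1*. All sh-control libraries were higher, and *DDX60* fell by 1.01 on the log2 scale (SE 0.19, adjusted p = 0.00962). With the GC and length trend removed it was -0.83 (adjusted p = 0.00119), short of the fold threshold, and with single libraries left out it was called in 1 fit of 6. *ADAR*, which edits double-stranded RNA, was at 485 ± 26.0 and 494 ± 86.5 CPM (log2 fold change 0.03, -0.28 to 0.33, adjusted p = 0.917). *STAU2*, a double-stranded RNA-binding protein of RNA transport, had -0.67 (adjusted p = 0.0136) and -0.45 with the trend removed.

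None of 26 adaptors and signalling genes downstream of the receptors was called. *TICAM1*, the adaptor of TLR3, was near the limit of detection, at 2, 7 and 8 reads with sh-control against 12, 27 and 9 with sh-*RREB1* (log2 fold change 1.85, SE 0.48, adjusted p = 0.0300). This was 0.76 (-0.16 to 1.68) with the trend removed, and its exons are 63.0% GC. *TBK1*, the kinase that activates IRF3, was at 99.0 ± 8.02 and 74.1 ± 12.3 CPM (-0.42, adjusted p = 0.0724). *IRF3*, the transcription factor shared by these routes, was at 13.1 ± 5.44 and 23.9 ± 5.02 CPM (0.86, adjusted p = 0.0861), and moved to 0.10 with the trend removed. *IRF7*, its interferon-induced relative, had no more than 19 reads in any library (1.80, adjusted p = 0.118, and 0.33 with the trend removed). The largest differences in the list among genes with at least 1 CPM were in *IKBKG*, the regulatory subunit of the IKK complex (1.53, adjusted p = 0.0287), *UNC93B1*, which carries TLR3 to endosomes (1.42, adjusted p = 0.0269), and *TRAF2* (1.19, adjusted p = 0.0683). These were 0.58, -0.08 and 0.26 with the trend removed, and *IKBKG* is uncertain because a near-identical pseudogene can share its reads. By contrast, *RIPK1*, a kinase bound by TICAM1, was called in no fit with a fold threshold but was lower at an adjusted p of 0.00485, with a log2 fold change of -0.80 and of -0.79 after the correction.

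**Figure D5:**
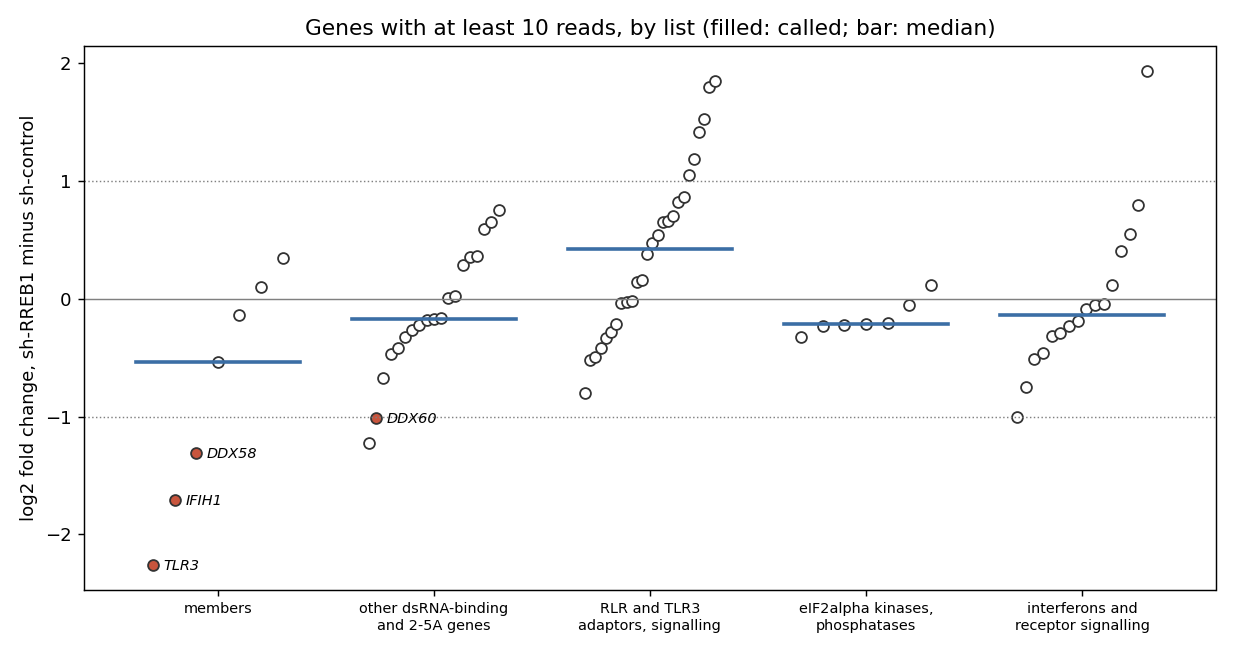
Log2 fold change (sh-*RREB1* minus sh-control, edgeR) of each tested gene of the members and of the 4 pathway lists, sorted within a list, with called genes filled and named and a bar at each median. The 3 lower members and *DDX60* are the only filled points, and the adaptors (RLR, RIG-I-like receptor) spread on both sides of 0.

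None of the 7 kinases, substrates and phosphatases of the eIF2alpha pathway was called, and their median log2 fold change was -0.22, which moved to -0.07 with the trend removed. The largest differences were in *DNAJC3*, an inhibitor of PKR (-0.32, adjusted p = 0.116), *PPP1R15B*, a phosphatase subunit that reverses eIF2alpha phosphorylation (-0.23, adjusted p = 0.218), and *EIF2AK4*, the amino acid-sensing kinase (-0.22, adjusted p = 0.203). These were -0.07, -0.07 and -0.11 with the trend removed. Of 22 interferons and interferon-receptor signalling genes, 16 were tested and none was called. *IFNB1*, the interferon gene that these sensors induce, had no read in any library. The receptor *IFNGR1* was at 116 ± 9.87 and 68.9 ± 4.79 CPM, with a log2 fold change of -0.75 (adjusted p = 0.00524) that did not reach the fold threshold. With the trend removed, *IFNGR1* had -0.52 (adjusted p = 0.00096). *STAT2* and *IRF9*, which carry the interferon signal to the nucleus, overlapped between groups, with log2 fold changes of -0.29 (adjusted p = 0.239) and -0.04 (adjusted p = 0.943). With the trend removed, *STAT2* was lower at -0.43 (-0.62 to -0.24, adjusted p = 0.00505), short of the fold threshold. *IRF9* then had -0.28 (adjusted p = 0.494). *TYK2*, a receptor-bound kinase, and *IFNLR1*, a receptor subunit, had 0.80 (adjusted p = 0.0711) and 0.55 (adjusted p = 0.134), and -0.09 and 0.17 with the trend removed.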

How the data were processed

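RNA-seq of 6 HEK293T libraries was used, 3 per group by the hairpin named in the labels. Raw read counts per gene were deposited by the authors, from alignment to hg38 by STAR 2.4.2a and the annotation of Gencode 25, without normalization. The sense-strand counts entered all tests, and 21.4% to 35.9% of aligned reads lay on no gene or on several genes and were left out. Of several identifiers under 1 symbol, that with most reads was kept, and genes under 10 reads in total were left out. The deposited merged table held identical counts for all 24635 identifiers it shares with the library tables, and its sh-*RREB1* columns were matched only to their group.

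Groups were compared with the edgeR 4.0.16 quasi-likelihood test (TMM, R 4.3.3) over all 23617 genes, and p-values were adjusted by the Benjamini-Hochberg method. Calls needed an adjusted p under 0.01 together with a log2 change of more than 1 in size. DESeq2 1.42.0, summed strands, the merged counts, other filters, scalings and thresholds, a replicate block, a spline offset (5 degrees of freedom) for GC content and exon length, and each library left out were the alternatives. The test was tried on simulated data. Coordinates, lengths and GC content came from Gencode version 44, promoters from RefSeq. CPM carry a prior count of 0.5 where correlated. Intervals are at 95%.

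Members and lists were chosen with earlier results of these data known. The genes named are the 9 members, *RREB1*, called list genes, defining pathway genes, the 3 largest differences of each list at 1 CPM or more, and 3 genes most like *TLR3* and *EIF2AK2*. *OASL* and *RIPK1* were named after their values were seen. A few genes that this rule names are not reported here. Protein sequences were not analysed here.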

Additional observations from a re-analysis of the deposited data

How the results depend on the processing

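The log2 fold changes of the 7 tested members and *RREB1* kept their sign in all 176 values from 22 alternative fits, and 52 of these moved by more than the spread between replicates. *TLR3* ran from -2.53 to -1.75, *DDX58* from -1.41 to -1.02 and *IFIH1* from -2.06 to -1.29, with all 66 values below -1. *DHX58* ran from -1.28 to -0.34, *MAVS* from 0.07 to 0.40, *EIF2AK2* from 0.00048 to 0.37 and *OAS3* from -0.35 to -0.00043. The 3 called members remained called in every alternative that used all libraries. With 1 library left out, 0 to 3 members were called, and 3 in each such fit with the GC and length correction. The count of pathway genes called was 1, and became 3 with DESeq2, 0 with both strands together, 5 with a minimum of 1 read, 0 with filterByExpr, 0 with the GC and length correction, 5 at an adjusted p below 0.05, 3 with no minimum fold change, and 0 to 2 with 1 library left out (0 to 0 with the correction). The count over all genes was 798, and became 1656 with DESeq2, 1829 with a minimum of 1 read, 2052 at an adjusted p below 0.05, 1282 with no minimum fold change, and 8 to 1120 with 1 library left out (457 to 715 with the correction, among them 506 when sh-control replicate 2 was left out and 494 for sh-*RREB1* replicate 1). The higher share of calls was 72.6% with upper-quartile scaling. The cause of these shifts was not tested. With the replicate number as a block, 1706 genes, 4 pathway genes and the same 3 members were called, and with block and correction together 0 pathway genes. Same-numbered libraries had correlations of 0.50, 0.43 and -0.28 in their deviations from the group means. The labels do not say whether equal numbers mark pairs, and these correlations cannot settle it. By the longest transcript in place of all exons, 7 of the 9 members kept their rank in sh-control, with *OAS3* at rank 5 and *TLR3* at rank 7. On the opposite strand alone 2 promoters held GAAANNGAA. Depth limits *OAS1* and *OAS2* most, and then *TLR3* and *DHX58*.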

Other observations

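*OASL*, a relative of the OAS enzymes without their activity that has been described as a helper of RIG-I, was weakly counted, at 28, 25 and 42 reads with sh-control against 6, 18 and 7 with sh-*RREB1*. Its levels of 1.15 ± 0.203 and 0.494 ± 0.229 CPM (SD, n = 3) did not overlap between groups. The log2 fold change was -1.23 (SE 0.39, edgeR adjusted p = 0.0564) and -1.32 with the GC and length trend removed (adjusted p = 0.0210), and neither met the call. *OASL* was singled out after its values were seen.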
